A study of Saccharomyces cerevisiae with 18 samples.

Results

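Yeast arrays labelled Δ*apn1*/p*MAG*, for cells with a disrupted AP endonuclease gene *APN1* and a plasmid for the DNA glycosylase gene *MAG1*, were compared with arrays labelled wild type over the 6504 probe sets that carry the name of 1 gene, of 9335 probe sets on the array. The comparison set 3 arrays of Δ*apn1*/p*MAG* against 3 of wild type, chosen by their labels among the 18 arrays of the series. The spread behind each p-value was estimated over all 18 arrays, with 1 mean per strain. By its labels the strain was made to hold the first enzyme of base excision repair in excess and to lack the second. The arrays did not plainly show both changes. The *APN1* signal was higher, not lower, on all 3 Δ*apn1*/p*MAG* arrays, though its probe set may not read the disruption. The *MAG1* signal lay above wild type on all 3 but was far higher on 1 of them. Δ*apn1*/p*MAG* therefore names a label here and not a measured state. The clearest difference was in *HUG1*, the small inhibitor of ribonucleotide reductase, which was 31.3-fold higher in Δ*apn1*/p*MAG*. With it stood, on the higher side, the chitin synthase gene *CHS1* and *HIS3*, the gene inserted in the disruption. On the lower side stood the cell surface genes *FLO11* and *PRY3* and the transporter gene *QDR2*. These genes had an adjusted p under 0.05 in limma. No probe set had one when Δ*apn1*/p*MAG* replicate 3 or wild type replicate 2 or 3 was left out.

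In base excision repair a DNA glycosylase cuts a damaged base from its sugar and leaves an abasic site. An AP endonuclease, in yeast mainly Apn1, then opens the strand at that site so that it can be refilled and sealed. Mag1 removes methylated bases such as 3-methyladenine, and at high levels also some normal bases, so that its excess over Apn1 is known to load yeast DNA with abasic sites. Ribonucleotide reductase makes the deoxynucleotides that refilling and replication use, and its genes are the classic targets of the yeast DNA damage checkpoint.

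All strains derived from BGY111, a *MATa* haploid with mutations in *his3*, *leu2*, *ura3*, *trp1* and *can1* that grows on galactose. By the labels and the study's methods Δ*apn1*/p*MAG* carried the disruption *apn1-1::HIS3* and the *MAG* gene on the vector pYES, which has a galactose-inducible promoter and the selectable marker *URA3*. Wild type carried the empty vector pYES. Both were grown to mid-log phase in synthetic medium with galactose and without uracil, so the inducer, the selection and the vector were shared by both groups. Each array held RNA of 1 of 3 cultures per strain. 2 further strains with 3 arrays each, WT/p*MAG* and Δ*apn1*, were used to set Δ*apn1*/p*MAG* beside each of its 2 changes alone. Each strain is 1 disruption or 1 plasmid in 1 background, so the data cannot tell a gene's effect from that of the particular strain, and in a culture fewer cells that express a gene cannot be told apart from less RNA per cell.

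Values are signals on a log2 scale, in which 1 unit is a doubling, and no detection call comes with them, so a low signal cannot be called absent. Array medians lay between 1.634 and 1.724. Replicate 1 of Δ*apn1*/p*MAG* stood apart. The control probe sets for *ACT1*, which probe the 5′, middle and 3′ parts of the actin transcript, read 2.44, 9.45 and 9.17 at the 5′ part on Δ*apn1*/p*MAG* replicates 1, 2 and 3, against 9.68, 8.60 and 8.90 on the wild type arrays. At the 3′ part the same probe sets read 10.22, 10.16 and 9.83 in Δ*apn1*/p*MAG* and 10.33, 10.42 and 10.25 in wild type, so replicate 1 was not low there. At the middle part it read 4.13. It also correlated less with the other Δ*apn1*/p*MAG* arrays (0.929 and 0.937) than those did with each other (0.974). The mean of 79 probe sets for small non-coding RNAs was 2.52, 1.70 and 1.69 on the arrays of Δ*apn1*/p*MAG*, against 1.75, 2.38 and 2.15 on those of wild type. Over the series 7 arrays had a high and 11 a low level of these RNAs, which no label explains. Δ*apn1*/p*MAG* replicate 1 and wild type replicates 2 and 3 were high, and the other 3 arrays of the comparison low. Its part in the results was not tested beyond the values given within each level, which set 2 Δ*apn1*/p*MAG* arrays against 1 of wild type (low) and 1 against 2 (high). Of the genes named here as past the methods' thresholds, 64 of 108 differed within a level by a size more than 1.5 times away from that over all arrays, and 7 had the sign turned. Such values are given beside the genes whose call held with any array left out. The counts were also made without replicate 1.

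**Figure D1:**
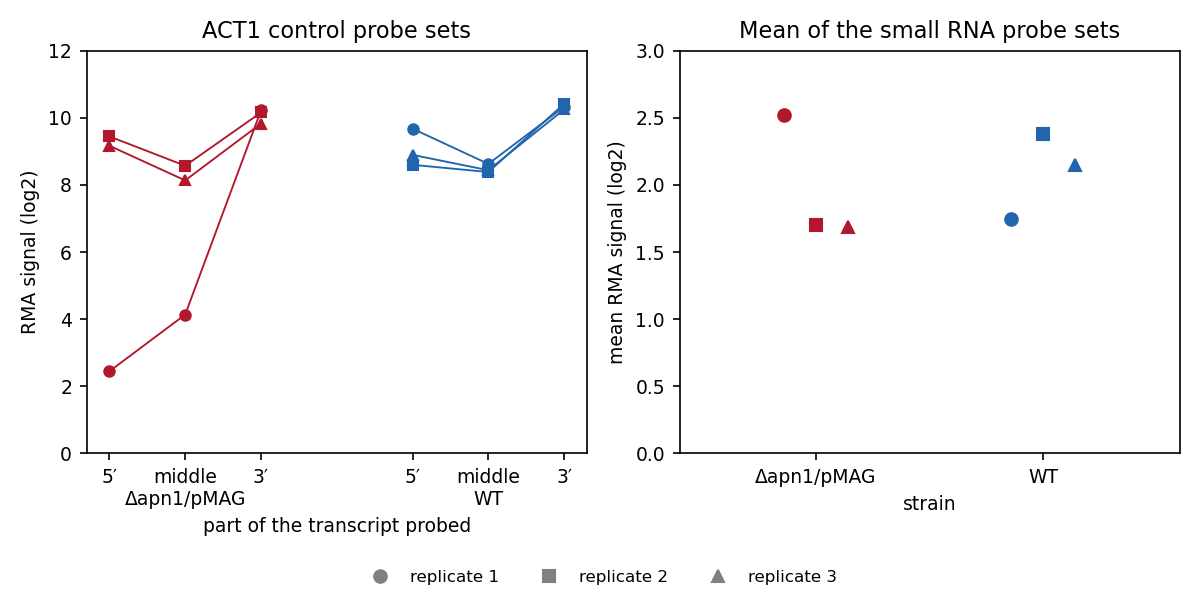
RMA signal (log2) of the *ACT1* control probe sets for the 5′, middle and 3′ parts of the transcript (left) and mean signal of the 79 small RNA probe sets (right) on the 3 Δ*apn1*/p*MAG* arrays (red) and the 3 wild type arrays (blue), with 1 symbol per replicate. On Δ*apn1*/p*MAG* replicate 1 the 5′ signal is 2.44, against 8.60 or more on the other 5 arrays, and its small RNA level is the highest of the 6.

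The disrupted gene and the markers were read first, to check the labels. The *APN1* probe set read 3.97, 3.64 and 4.38 on the arrays labelled Δ*apn1*/p*MAG*, against 1.14, 1.26 and 1.88 on those labelled wild type. It was higher, not lower, on all 3 (2.57 on the log2 scale, adjusted p = 0.155 from limma). On the Δ*apn1* arrays it read 2.98, 2.81 and 3.15. It averaged 7.57 in Δ*apn1*/p*APN1*, which carries *APN1* on a plasmid. Which part of the gene the probes cover relative to the insertion is not given in the sources used here, so this probe set does not show the loss of *APN1*, and the groups are named by their labels throughout. *HIS3*, the gene inserted in the disruption, read 5.35, 5.26 and 5.53 in Δ*apn1*/p*MAG* and 3.25, 3.96 and 4.16 in wild type. The groups did not overlap (1.59, standard error 0.28, adjusted p = 0.0472 from limma), and the second *HIS3* probe set was also higher (1.16, adjusted p = 0.0472 from limma). The host carries a *his3* allele of its own in every strain.

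*MAG1* read 7.17, 2.88 and 1.82 in Δ*apn1*/p*MAG*, against 1.10, 0.99 and 0.89 in wild type. All 3 arrays lay above wild type, but replicate 1 was far above replicates 2 and 3, and the difference of 2.96 (standard error 1.26, adjusted p = 0.702 from limma) became 1.36 without it. Within the arrays of low and high small RNA level it was 1.25 and 6.23. The call at the methods' thresholds described below was lost without replicate 1 of Δ*apn1*/p*MAG* or replicates 1, 2 or 3 of wild type (1.36 to 3.02). In WT/p*MAG* the same probe set read 6.14, 1.48 and 6.91, so the spread was as wide there. *URA3*, the marker of the vector in both strains, read 4.48, 5.13 and 5.22 in Δ*apn1*/p*MAG* and 6.20, 7.37 and 7.59 in wild type (−2.11, adjusted p = 0.421 from limma, and −1.02 and −2.995 within the low and high level). A control probe set for the same gene read 5.60, 6.91 and 7.003 in Δ*apn1*/p*MAG* and 7.43, 8.83 and 8.81 in wild type. *LEU2* (−0.046) and *TRP1* (−0.49) did not pass. The galactose genes were bright in both groups, with *GAL1*, the galactokinase gene, at 8.22, 9.04 and 8.96 in Δ*apn1*/p*MAG* and 8.80, 8.74 and 8.79 in wild type. *GAL1* (−0.038), *GAL2* (−0.59), *GAL7* (−0.76) and *GAL10* (−0.38) did not pass, and *GAL7* was low on Δ*apn1*/p*MAG* replicate 3 alone (6.36, against 8.18 or more on the other 5 arrays). The receptor gene of *MATa* cells, *STE2*, read 4.25, 4.88 and 4.40 in Δ*apn1*/p*MAG* and 5.29, 4.58 and 4.87 in wild type, and that of the opposite mating type, *STE3*, was near the array medians, at 1.60, 1.80 and 1.64 in Δ*apn1*/p*MAG* and 1.84, 1.79 and 1.62 in wild type.

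Of the 6504 probe sets 7, or 0.108%, had an adjusted p under 0.05 in limma. 4 of them were higher (0.0615%), namely *HUG1*, *CHS1* and both *HIS3* probe sets, and 3 lower (0.0461%), *FLO11*, *PRY3* and *QDR2*. This count was 5 and 9 without Δ*apn1*/p*MAG* replicates 1 and 2, and 1 without wild type replicate 1. It was 0 without Δ*apn1*/p*MAG* replicate 3 or wild type replicates 2 or 3, where limma gave 387, 300 and 385 probe sets an unadjusted p under 0.05. It was also 0 when the 6 arrays were fitted without the other strains (350 unadjusted). Where no probe set differs, a share of 0.05 of the 6504 is expected at an unadjusted p under 0.05, and these counts lie near it. Over the 6 omissions *HUG1* kept an adjusted p under 0.05 in 2, *CHS1*, *PRY3*, *FLO11* and *QDR2* in 1 each and *HIS3* in 0. The study's methods took an unadjusted p under 0.05 together with a fold change of 1.5 or more as thresholds. In limma they were passed by 220 probe sets (3.38%), 132 higher (2.03%) and 88 lower (1.35%), for 215 genes. In the same fit without limma's moderation of the variance 179 passed. An unadjusted p under 0.05 alone was reached by 451 probe sets (6.93%). In what follows, genes said to be higher or lower passed these thresholds, and the adjusted p says whether the difference also stands over all probe sets. The differences ran from −2.11 to 4.97, with a median size of 0.87. Of the 132 higher probe sets 20 had a wild type mean below the lowest array median, and of the 88 lower ones 6 had such a mean in Δ*apn1*/p*MAG*, and the size of such folds is uncertain. Of the 220, 150 had 3 Δ*apn1*/p*MAG* arrays outside the wild type range (94 above and 56 below), against 706 (10.9%) of all probe sets. The 220 were picked on these same arrays, so separate ranges follow partly from the thresholds and are no further support. This holds for the genes below too. With each of the 6 arrays left out in turn, 73 of the 220 passed every time, 48 higher and 25 lower, or 33.2%.

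Without Δ*apn1*/p*MAG* replicate 1 the methods' thresholds were passed by 356 probe sets (5.47%), 211 higher (3.24%) and 145 lower (2.23%). Without replicate 2 the number was much the same, 357. An unadjusted p under 0.05 was reached by 670 probe sets (10.3%) without replicate 1. The 154 probe sets that passed both ways, all in 1 direction, were 70% of the 220 and 43.3% of the 356. Lost were 28 higher and 38 lower probe sets, and gained 107 higher and 95 lower. Replicate 1 lay more than 1 log2 unit from the mean of replicates 2 and 3 for 25% of the 220, against 9.21% of all probe sets. At an adjusted p under 0.05 there were then 5 probe sets (0.0769%), all higher. *HUG1* was among them, with *ISU2*, a scaffold protein of iron-sulfur cluster assembly, *FRE3*, a ferric reductase of siderophore uptake, *BUB2*, part of the mitotic exit checkpoint, and *BUR6*, a subunit of a general regulator of transcription. *BUB2* read 2.61, 4.71 and 4.34 in Δ*apn1*/p*MAG* and 2.63, 2.93 and 2.74 in wild type. Replicates 2 and 3 lay above all wild type arrays and replicate 1 below them (1.12 with all arrays, 1.75 without replicate 1, adjusted p = 0.0123 from limma). *BUR6* read 2.60, 3.74 and 4.08 in Δ*apn1*/p*MAG* and 2.86, 2.47 and 2.996 in wild type, with replicates 2 and 3 above and replicate 1 within the wild type range (0.70, and 1.14 without replicate 1, adjusted p = 0.0206 from limma). With all other arrays kept, the call for *BUB2* was lost without replicates 2 or 3 of Δ*apn1*/p*MAG* (0.71 to 0.89) and that for *BUR6* without replicates 2 or 3 of Δ*apn1*/p*MAG* or replicate 2 of wild type (0.40 to 0.56).

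**Figure D2:**
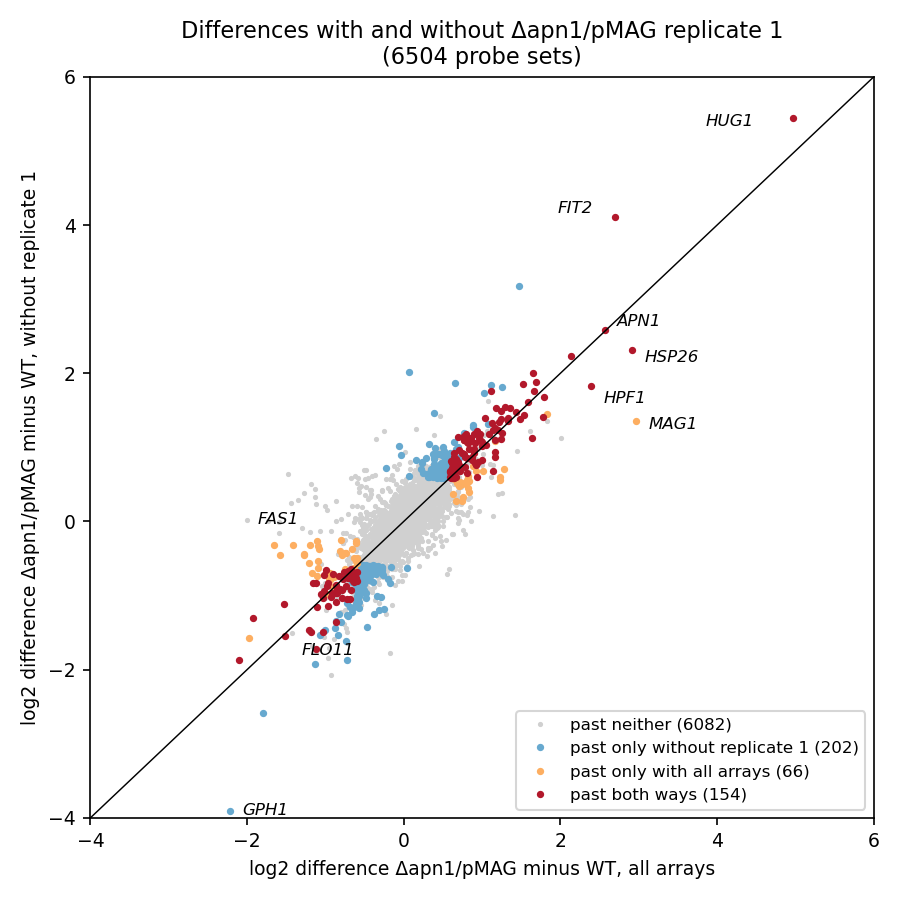
Each point is 1 of 6504 probe sets, with the log2 difference Δ*apn1*/p*MAG* minus wild type over all arrays on the x axis and without Δ*apn1*/p*MAG* replicate 1 on the y axis. Colours give the probe sets past the methods' thresholds both ways (154), with all arrays only (66), without replicate 1 only (202) or neither way (6082), and the line marks equal values. *HUG1* is far above all others both ways, while *FAS1* and *MAG1* move toward 0 and *FIT2* away from it when replicate 1 is left out.

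*HUG1* and the ribonucleotide reductase genes formed the list with the highest share of calls after the strain and plasmid markers. Of 12 genes for the enzyme and its regulators, 5 were higher and none lower, with all arrays and without replicate 1, where 2.26% of all 5656 genes were higher and 1.4% lower with all arrays, and 3.61% higher and 2.33% lower without replicate 1, when each gene was counted by its brightest probe set. The median difference of the 12 was 0.38, against 0.025 for all genes. *HUG1* read 5.13, 6.02 and 7.13 in Δ*apn1*/p*MAG* and 1.03, 1.13 and 1.22 in wild type. Each Δ*apn1*/p*MAG* array lay more than 3 units above each wild type array, and the wild type signals lay below the array medians. *HUG1* was highest on replicate 3, the array on which *MAG1* was lowest. The difference of 4.97 (standard error 0.73, 31.3-fold, adjusted p = 0.0244 from limma) was 5.45 without replicate 1 and between 4.45 and 5.45 with any 1 array left out. The adjusted p from limma then lay between 0.0206 and 0.146, and the log2 difference was 5.54 and 3.96 within the arrays of low and high small RNA level. *RNR3*, the damage-inducible large subunit, read 4.28, 3.76 and 4.17 in Δ*apn1*/p*MAG* and 2.90, 2.32 and 2.37 in wild type. *RNR2*, a small subunit, read 8.59, 7.73 and 7.64 in Δ*apn1*/p*MAG* and 6.85, 6.78 and 6.82 in wild type. Neither pair of groups overlapped, and both genes passed with any of the 6 arrays left out (*RNR3* 1.54, *RNR2* 1.17, adjusted p = 0.184 for both from limma). Within the low and high level *RNR2* differed by 0.83 and 1.79.

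*RNR1*, the major large subunit, read 5.96, 7.77 and 6.27 in Δ*apn1*/p*MAG* and 5.99, 4.32 and 4.76 in wild type. Wild type replicate 1 was as high as the lowest Δ*apn1*/p*MAG* array (1.65, adjusted p = 0.605 from limma), and the call was lost without replicate 2 of Δ*apn1*/p*MAG* or replicates 2 or 3 of wild type (1.09 to 1.51). *RNR4*, the second small subunit, read 6.50, 7.47 and 7.77 in Δ*apn1*/p*MAG* and 6.63, 6.41 and 6.37 in wild type. Replicate 1 of Δ*apn1*/p*MAG* lay within the wild type range and replicates 2 and 3 above it, so that the difference was 0.78 with all arrays (adjusted p = 0.605 from limma) and 1.15 without replicate 1. It was lost without replicates 2 or 3 of Δ*apn1*/p*MAG* (0.51 to 0.66). *DUN1*, the checkpoint kinase that governs these genes, did not pass (0.20).

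**Figure D3:**
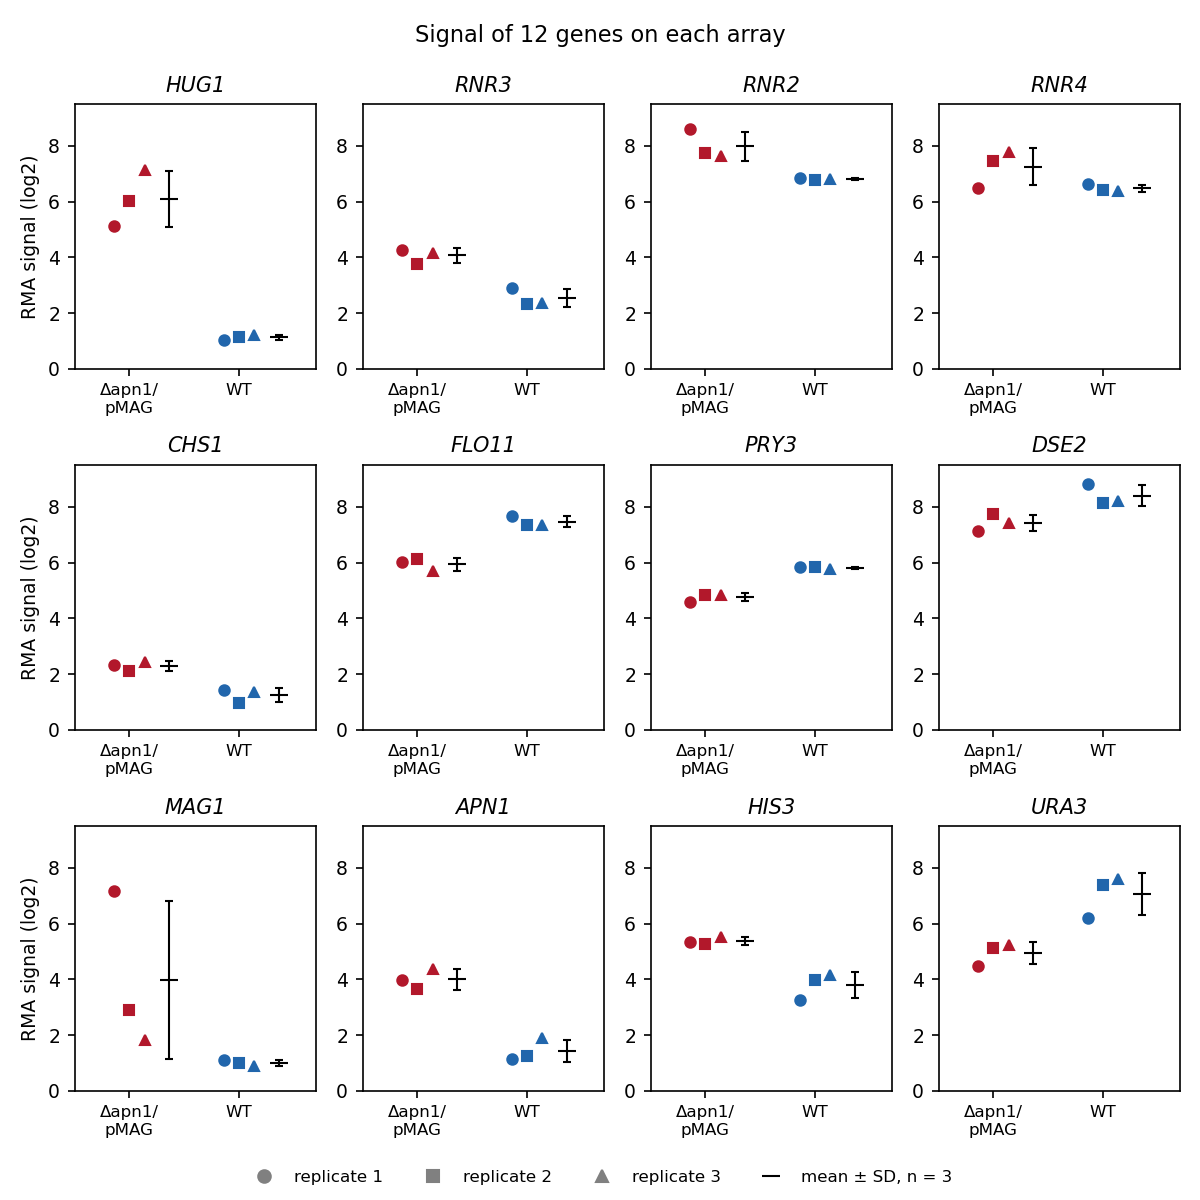
RMA signal (log2) of 12 genes on each Δ*apn1*/p*MAG* array (red, left) and wild type array (blue, right), with 1 symbol per replicate and the mean ± SD (n = 3) in black beside them. *HUG1*, *RNR3* and *RNR2* lie above wild type on all 3 arrays and *FLO11*, *PRY3*, *DSE2* and *URA3* below it, while *RNR4* on replicate 1 lies within the wild type range and *MAG1* spans from 1.82 to 7.17.

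Few other DNA repair genes passed, where 3.66% of all genes did. In base excision repair 3 of 17 genes were higher and none lower, and besides *MAG1* and *APN1* this was *RAD27*, the flap endonuclease that trims the repair patch. *RAD27* read 2.62, 3.17 and 3.15 in Δ*apn1*/p*MAG* and 2.01, 2.39 and 2.55 in wild type (0.66, adjusted p = 0.707 from limma) and was lost without replicates 2 or 3 of Δ*apn1*/p*MAG* or replicates 1 or 2 of wild type (0.51 to 0.70). Of the other glycosylases *UNG1* (−0.09), which removes uracil, and *NTG2* (0.33) did not pass, and neither did the second AP endonuclease *APN2* (0.045). *OGG1*, the 8-oxoguanine glycosylase, and *NTG1*, a glycosylase for oxidized pyrimidines, had differences of 0.56 and −0.41. They passed only without some arrays, *OGG1* as higher (0.77 without replicate 1) and *NTG1* as lower (−0.72 without replicate 1). Damage-inducible genes as a list had 5 of 23 higher and none lower (21.7%, against 3.66% of all genes), namely *HUG1*, *RNR2*, *RNR3*, *RNR4* and *MAG1*. All but *MAG1* were already counted among the ribonucleotide reductase genes, and *MAG1* is the gene that p*MAG* carries. The list is therefore no separate result.

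No gene passed among 15 for translesion synthesis and post-replication repair, 21 for nucleotide excision repair, 7 for mismatch repair and 20 for the damage checkpoint. With 3.66% of all genes past the thresholds, lists this short may hold no call. The counts in this paragraph do not set these genes apart from all genes. The translesion polymerase genes *REV1*, *REV3* and *REV7* had differences of 0.027, 0.12 and −0.0035. In recombination 1 of 27 (3.7%) was higher. It was *RDH54*, a DNA translocase that acts with the strand exchange proteins, which read 1.56, 2.06 and 1.55 in Δ*apn1*/p*MAG* and 1.15, 0.85 and 0.81 in wild type with no overlap (0.78, standard error 0.18, adjusted p = 0.158 from limma). In DNA replication 2 of 52 (3.85%) were higher, *RAD27* and *POL1*, the catalytic subunit of DNA polymerase alpha. *POL1* read 2.17, 2.74 and 2.79 in Δ*apn1*/p*MAG* and 1.65, 1.48 and 1.64 in wild type (0.98, adjusted p = 0.451 from limma). Both *RDH54* and *POL1* passed with each of the 6 arrays left out, and *POL1* differed by 1.11 and 0.61 within the low and high level. No gene passed among 12 histone genes and regulators, 26 genes of G1 and S phase and 25 of G2 and M phase, where 1, 2 and 1 were higher without replicate 1. The histone genes *HTB1* (−0.12) and *HTB2* (−0.014) overlapped wild type.

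Genes of the cell surface moved in both directions. In the list of daughter cell separation and chitin 5 of 26 were lower and 2 higher, and without replicate 1 3 were lower and 2 higher. *PRY3*, a secreted protein of the daughter cell wall, read 4.59, 4.84 and 4.84 in Δ*apn1*/p*MAG* and 5.83, 5.84 and 5.76 in wild type. The groups lay more than 0.9 units apart and were both narrow (−1.05, standard error 0.17, adjusted p = 0.0244 from limma). *DSE2*, a daughter-specific protein thought to degrade the wall from the daughter side, read 7.14, 7.74 and 7.40 in Δ*apn1*/p*MAG* and 8.83, 8.15 and 8.21 in wild type (−0.97, adjusted p = 0.209 from limma). *CTS1*, the endochitinase that cuts mother and daughter apart, read 8.88, 8.62 and 8.30 in Δ*apn1*/p*MAG* and 9.57, 9.26 and 9.32 in wild type (−0.79, adjusted p = 0.501 from limma). All 3 genes lay below wild type on every array and passed with any array left out, and *CTS1* differed by −1.11 and −0.41 within the low and high level. *SCW11*, a glucanase-like wall protein, was lower by the same measure (−0.73) but not without replicates 1 or 3 of Δ*apn1*/p*MAG* or replicate 1 of wild type (−0.69 to −0.42). *SUN4*, a wall protein of septation, was far lowest on Δ*apn1*/p*MAG* replicate 1 (4.82, 7.64 and 6.96 in Δ*apn1*/p*MAG*, 8.11, 7.66 and 7.48 in wild type) and did not pass without it (−0.45) or without wild type replicate 1 (−1.10).

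On the higher side of that list stood *CHS1*, the chitin synthase that mends the wall at septation, with 2.34, 2.09 and 2.44 in Δ*apn1*/p*MAG* and 1.41, 0.95 and 1.34 in wild type. The groups did not overlap (1.06, standard error 0.16, adjusted p = 0.0244 from limma), although the wild type signals lay below the array medians. *CRH1*, which links chitin to glucan, read 6.78, 6.56 and 7.33 in Δ*apn1*/p*MAG* and 4.80, 5.55 and 6.03 in wild type, again with no overlap (1.43, adjusted p = 0.155 from limma).

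Among flocculins, mannoproteins and yapsins 5 of 37 were lower and 2 higher, and without replicate 1 6 were lower and 2 higher. *FLO11*, the flocculin of adhesion and invasive growth, read 6.01, 6.14 and 5.69 in Δ*apn1*/p*MAG* and 7.68, 7.34 and 7.36 in wild type. The highest Δ*apn1*/p*MAG* array lay more than 1 unit below the lowest wild type array (−1.52, standard error 0.24, adjusted p = 0.0244 from limma). The wall mannoproteins *TIP1* (−0.99) and *TIR1* (−1.53) and *PRY2* (−1.12), a relative of *PRY3* that exports sterols, lay below wild type on all 3 arrays and passed with any array left out. For these 3 genes Δ*apn1*/p*MAG* replicate 1 was the lowest array, as with *TIR1* at 6.40, 7.85 and 7.41 in Δ*apn1*/p*MAG* and 8.48, 9.35 and 8.42 in wild type, and without it the differences were −0.66, −1.12 and −0.83. Within the low and high level *TIR1* differed by −0.85 and −2.48 and *PRY2* by −0.62 and −1.80. *DAN4* (−0.68), a further mannoprotein, was lost without replicate 2 of Δ*apn1*/p*MAG* or replicate 2 of wild type (−0.64 to −0.46). *HPF1*, a mannoprotein, was higher at 7.95, 6.24 and 6.25 in Δ*apn1*/p*MAG* and 4.71, 3.90 and 4.64 in wild type (2.40, and 1.82 without replicate 1, adjusted p = 0.19 from limma with all arrays, and 1.53 and 3.69 within the low and high level). *YPS3*, an aspartic protease of the cell surface, was higher at 5.90, 5.46 and 6.02 in Δ*apn1*/p*MAG* and 4.71, 4.41 and 4.51 in wild type (1.25, adjusted p = 0.087 from limma).

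In the list of cell wall integrity 3 of 28 were higher and none lower. *SLT2*, the MAP kinase of that pathway, read 5.18, 4.60 and 5.57 in Δ*apn1*/p*MAG* and 4.21, 4.29 and 4.25 in wild type, with all Δ*apn1*/p*MAG* arrays above (0.87, standard error 0.26, adjusted p = 0.383 from limma), and passed with any array left out. Its transcription factor *RLM1* (0.86) rested mostly on Δ*apn1*/p*MAG* replicate 3 and was lost without replicate 3 of Δ*apn1*/p*MAG* or replicates 2 or 3 of wild type (0.41 to 0.85). The wall protein *PST1* (1.28) was lost without replicates 1 or 3 of Δ*apn1*/p*MAG* or replicates 2 or 3 of wild type (0.71 to 1.38).

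Of 29 multidrug transporters and regulators 4 were higher and 2 lower, and without replicate 1 4 were higher and 1 lower. *QDR2*, an exporter of drugs and cations, read 3.72, 4.30 and 4.30 in Δ*apn1*/p*MAG* and 5.12, 4.95 and 4.95 in wild type (−0.90, standard error 0.16, adjusted p = 0.0472 from limma), lowest on replicate 1, and was at −0.71 without it. *PDR10*, an ABC transporter, read 4.62, 4.41 and 4.99 in Δ*apn1*/p*MAG* and 4.21, 2.94 and 2.88 in wild type (1.33, adjusted p = 0.147 from limma). Within the low and high level it differed by 0.49 and 1.72. *PDR16*, a phosphatidylinositol transfer protein of the drug response, read 5.95, 6.04 and 6.39 in Δ*apn1*/p*MAG* and 5.34, 4.77 and 4.85 in wild type (1.14, adjusted p = 0.172 from limma). With *SNQ2* (1.29), a second ABC transporter, and *RSB1* (1.13), which moves sphingoid bases, all Δ*apn1*/p*MAG* arrays lay above wild type and all 4 higher calls held with any array left out. *YOR1*, another ABC transporter, was far lowest on replicate 1 (3.90, 6.82 and 6.26 in Δ*apn1*/p*MAG*, 7.17, 6.41 and 6.96 in wild type) and did not pass without replicate 1 of Δ*apn1*/p*MAG* or replicates 1 or 3 of wild type (−1.14 to −0.31). None of its 6 further probe sets passed.

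**Figure D4:**
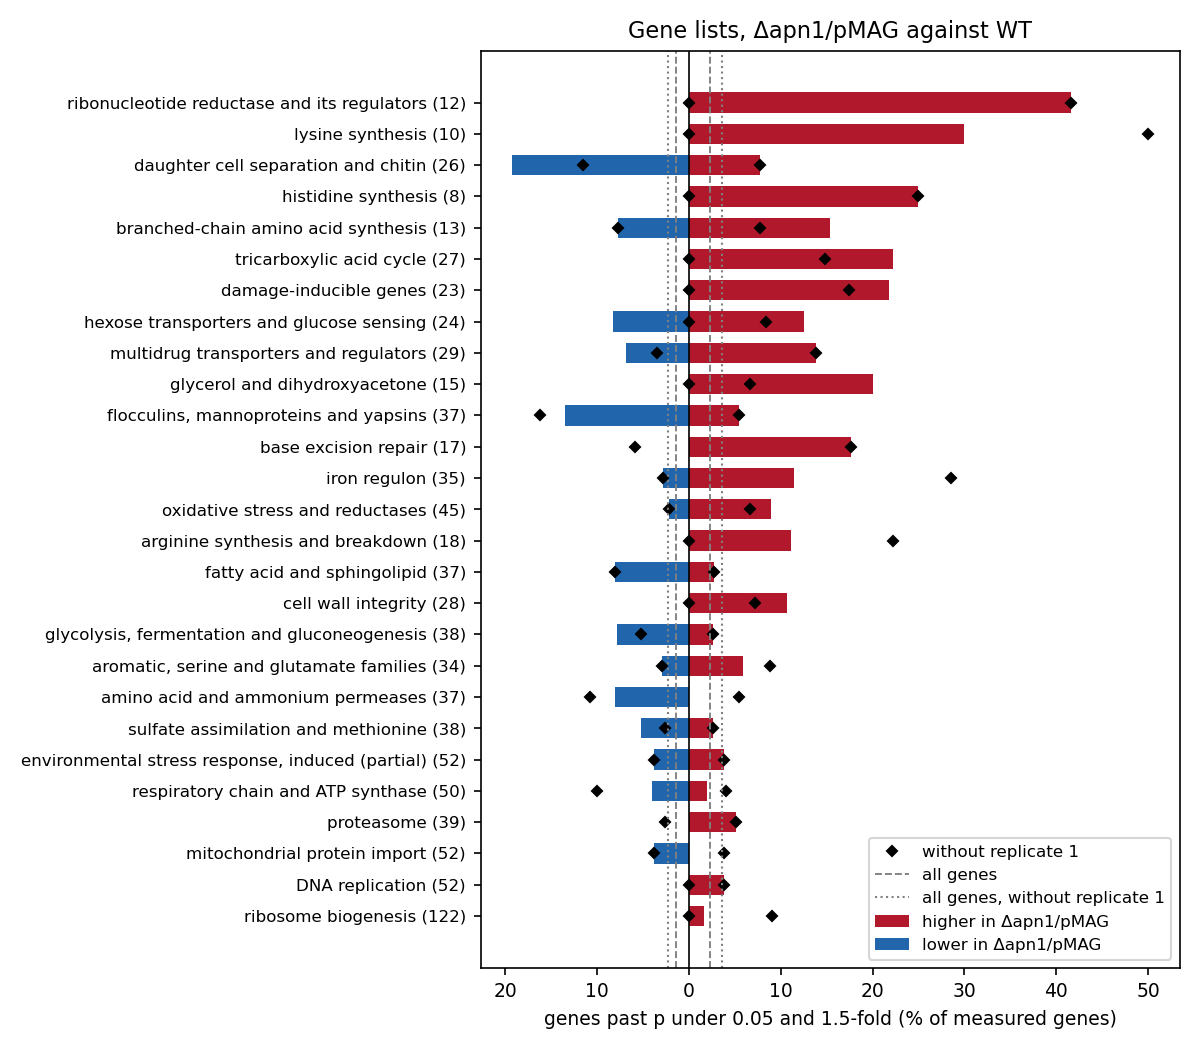
Share of the measured genes of each list (number in brackets, 1 probe set per gene) that were higher (red, to the right) or lower (blue, to the left) in Δ*apn1*/p*MAG* than in wild type at the methods' thresholds, for lists with 2 or more calls other than the strain and plasmid markers. Diamonds give the shares without Δ*apn1*/p*MAG* replicate 1, dashed lines those of all genes (2.26% higher and 1.4% lower) and dotted lines those of all genes without replicate 1 (3.61% and 2.33%). Of the lists drawn, that of ribonucleotide reductase has the longest bar, and the iron and lysine lists gain most without replicate 1.

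Most genes of amino acid synthesis that passed were higher, but so were most of all genes that passed (128 higher and 79 lower of 5656). In the list of sulfate assimilation and methionine 1 of 38 was higher and 2 lower. In lysine synthesis 3 of 10 were higher and none lower (5 and none without replicate 1), with a median of 0.55. *LYS21*, a homocitrate synthase for the first step of the pathway, read 4.96, 5.53 and 4.93 in Δ*apn1*/p*MAG* and 3.94, 3.995 and 4.24 in wild type (1.08, adjusted p = 0.363 from limma) and passed with any array left out. The second homocitrate synthase, *LYS20* (1.24), and *LYS1* (0.98), which makes lysine in the last step, lay above wild type on all arrays. Wild type replicate 1 was far the lowest array for both, as with *LYS20* at 7.71, 8.30 and 7.99 in Δ*apn1*/p*MAG* and 5.63, 7.32 and 7.33 in wild type, and the calls were lost without replicate 2 of Δ*apn1*/p*MAG* or replicate 1 of wild type (0.68 to 1.09) for *LYS20*, and for *LYS1* without replicate 2 of Δ*apn1*/p*MAG* or replicate 1 of wild type (0.61 to 0.88). Within the arrays of low and high small RNA level *LYS20* differed by 2.52 and 0.39. In histidine synthesis 2 of 8 were higher, *HIS4* (0.91) and *HIS7* (0.64), both above wild type on all arrays. *HIS4* was lost without replicate 1 of wild type (0.52) and *HIS7* without replicate 3 of Δ*apn1*/p*MAG* or replicate 1 of wild type (0.55 to 0.58).

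In arginine metabolism 2 of 18 were higher (4 without replicate 1). *ARG7*, for ornithine, read 3.84, 3.56 and 3.22 in Δ*apn1*/p*MAG* and 2.22, 2.73 and 2.82 in wild type (0.95, adjusted p = 0.451 from limma), and *CPA1* (0.77), a carbamoyl phosphate synthetase subunit, was lost without replicates 2 or 3 of Δ*apn1*/p*MAG* (0.59 to 0.62). Of 13 genes for branched-chain amino acids 2 were higher and 1 lower. *BAT2*, the cytosolic aminotransferase, was the lower one, at 2.01, 1.52 and 1.67 in Δ*apn1*/p*MAG* and 2.30, 2.46 and 2.63 in wild type (−0.73, standard error 0.15, adjusted p = 0.145 from limma). Its mitochondrial counterpart *BAT1* (0.84) and the leucine gene *LEU1* (0.82) were higher, most so on replicate 1, and without it stood at 0.40 and 0.45, no longer past the thresholds. Over all omissions *BAT1* was lost without replicate 1 of Δ*apn1*/p*MAG* or replicates 2 or 3 of wild type (0.40 to 0.83). *GDH1*, which binds ammonium into glutamate, was higher at 8.80, 7.56 and 7.28 in Δ*apn1*/p*MAG* and 6.98, 6.20 and 7.03 in wild type (1.14, and 0.68 without replicate 1, adjusted p = 0.415 from limma with all arrays, and 0.44 and 2.18 within the low and high level). *GDH2*, which releases ammonium from glutamate, was lower at 2.19, 2.57 and 2.40 in Δ*apn1*/p*MAG* and 3.43, 2.96 and 3.26 in wild type (−0.83, adjusted p = 0.605 from limma) and was lost without replicate 1 of wild type (−0.72).

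Of 37 permease genes for amino acids, peptides and ammonium none was higher and 3 lower with all arrays, and 2 were higher and 4 lower without replicate 1. *MMP1*, the permease for S-methylmethionine, read 2.97, 3.23 and 2.49 in Δ*apn1*/p*MAG* and 4.15, 3.91 and 3.96 in wild type (−1.11, standard error 0.26, adjusted p = 0.184 from limma) and passed with any array left out. *SAM3*, for S-adenosylmethionine, and *PTR2*, for small peptides, were lowest on replicate 1 and by their brightest probe sets did not pass without it (−0.38 and −0.54, against −1.08 and −1.10 with all arrays). A second *SAM3* probe set lay below wild type on all 3 arrays (−1.16) and was still lower without replicate 1 (−0.83), and its 3 others did not pass. *PTR2* read 2.79, 4.58 and 4.38 in Δ*apn1*/p*MAG* and 4.60, 5.20 and 5.25 in wild type. Over all omissions the brightest *SAM3* probe set was lost without replicate 1 of Δ*apn1*/p*MAG* or replicates 1 or 3 of wild type (−0.99 to −0.38) and *PTR2* without replicate 1 of Δ*apn1*/p*MAG* or replicates 2 or 3 of wild type (−1.01 to −0.54). Elsewhere in sulfur metabolism *MET22*, which clears a by-product of sulfate reduction, was higher at 4.005, 3.65 and 3.38 in Δ*apn1*/p*MAG* and 3.01, 2.46 and 2.79 in wild type (0.92, adjusted p = 0.209 from limma, and 0.50 and 1.38 within the low and high level).

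The tricarboxylic acid cycle had 6 of 27 genes higher and none lower (4 without replicate 1), although the median of the list was only 0.050. *IDH1*, a subunit of the isocitrate dehydrogenase, had the largest difference, at 5.74, 4.81 and 6.01 in Δ*apn1*/p*MAG* and 3.75, 2.36 and 5.08 in wild type. The wild type arrays spread over more than 2 units and replicate 3 lay above the lowest Δ*apn1*/p*MAG* array (1.79, standard error 0.54, adjusted p = 0.398 from limma). With 1 array left out the difference lay between 1.10, without wild type replicate 2, and 2.47, and passed each time. *IDH2*, the other subunit, was tight at 7.85, 7.86 and 7.90 in Δ*apn1*/p*MAG* and 7.08, 7.27 and 7.29 in wild type (0.65, standard error 0.17, adjusted p = 0.204 from limma) and was lost only without replicate 1 of wild type (0.58). The citrate synthase *CIT1* (0.75), the aconitase *ACO1* (0.68) and the fumarase *FUM1* (1.16) lay above wild type on all arrays, and the malic enzyme *MAE1* (0.76) on replicates 2 and 3. Each of these 4 calls was lost with 1 to 3 of the 6 arrays left out, *ACO1* without replicate 1 of Δ*apn1*/p*MAG* (0.52), *FUM1* without replicates 1 or 3 of Δ*apn1*/p*MAG* or replicate 1 of wild type (0.57 to 1.13), *CIT1* without replicates 2 or 3 of Δ*apn1*/p*MAG* or replicate 1 of wild type (0.48 to 0.72) and *MAE1* without replicate 3 of Δ*apn1*/p*MAG* or replicates 2 or 3 of wild type (0.37 to 0.72).

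In the respiratory chain and ATP synthase 1 of 50 was higher and 2 lower (2 and 5 without replicate 1). *NDE1*, the external NADH dehydrogenase, read 8.59, 8.57 and 8.73 in Δ*apn1*/p*MAG* and 6.89, 7.92 and 8.08 in wild type (1.002, adjusted p = 0.345 from limma), with wild type replicate 1 the lowest, and passed with any array left out. It was 0.63 without that array, and 1.76 and 0.59 within the low and high level. *COX15* (−0.71), for the heme of cytochrome oxidase, was lower, and was lost without replicate 1 of wild type (−0.49). *COX5B* (−1.12), the hypoxic subunit, was lower on replicates 2 and 3 only and was lost without replicates 2 or 3 of Δ*apn1*/p*MAG* or replicates 1 or 2 of wild type (−1.14 to −0.57). Of 52 genes of mitochondrial protein import 2 were lower, and *TIM17*, a subunit of the inner membrane channel, read 5.12, 5.09 and 4.73 in Δ*apn1*/p*MAG* and 5.75, 5.92 and 5.81 in wild type with no overlap (−0.85, adjusted p = 0.353 from limma). The other, *TIM8* (−0.62), was lost without replicate 3 of Δ*apn1*/p*MAG* or replicate 2 of wild type (−0.45 to −0.43). Of 71 mitochondrial ribosomal proteins 1 was lower (*MRPL20*, −0.63), and was lost without replicates 1 or 3 of Δ*apn1*/p*MAG* or replicates 1, 2 or 3 of wild type (−0.71 to −0.49).

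Iron genes differed widely between replicate 1 and the other Δ*apn1*/p*MAG* arrays. Of 35 genes of the iron regulon 4 were higher and 1 lower with all arrays, and 10 were higher and 1 lower without replicate 1. *ISU2* read 2.05, 2.94 and 3.27 in Δ*apn1*/p*MAG* and 1.82, 1.30 and 1.60 in wild type, above wild type on all arrays (1.18, and 1.53 without replicate 1, adjusted p = 0.0398 from limma without it). Within the low and high level *ISU2* differed by 1.28 and 0.60. *FRE3* read 1.37, 2.06 and 2.08 in Δ*apn1*/p*MAG* and 1.35, 1.18 and 1.07 in wild type (0.64, and 0.87 without replicate 1, adjusted p = 0.0318 from limma without it), and its call with all arrays was lost without replicates 2 or 3 of Δ*apn1*/p*MAG* or replicate 3 of wild type (0.51 to 0.57). *FIT2*, a wall mannoprotein that holds iron chelates, read 3.87, 8.10 and 8.08 in Δ*apn1*/p*MAG* and 3.79, 4.63 and 3.53 in wild type. Replicates 2 and 3 were more than 3 units above every wild type array while replicate 1 lay among them (2.70, and 4.11 without replicate 1), and the call was lost without replicates 2 or 3 of Δ*apn1*/p*MAG* or replicates 1 or 3 of wild type (1.99 to 2.61).

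The same split held for *FIT3*, a second such mannoprotein, at 5.15, 10.29 and 10.29 in Δ*apn1*/p*MAG* and 7.45, 7.49 and 6.37 in wild type, and for the siderophore transporter *ENB1*, at 2.84, 6.62 and 6.34 in Δ*apn1*/p*MAG* and 4.48, 4.94 and 4.43 in wild type. For both, replicates 2 and 3 lay above and replicate 1 below the wild type arrays, so that neither passed with all arrays (1.47 and 0.65) and both passed without replicate 1 (3.18 and 1.87). Within the arrays of low small RNA level the differences were 4.30, 2.83 and 2.004 for *FIT2*, *FIT3* and *ENB1*, and within those of high level −0.21, −1.78 and −1.84. The heme oxygenase *HMX1* (0.85) was higher and was lost without replicate 3 of Δ*apn1*/p*MAG* or replicate 1 of wild type (0.42 to 0.72). *SMF2*, a manganese transporter, was the lower gene of the list, at 4.96, 4.94 and 4.40 in Δ*apn1*/p*MAG* and 5.35, 5.93 and 5.44 in wild type (−0.81, adjusted p = 0.336 from limma), and passed with any array left out.

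Among 45 genes of oxidative stress and reductases 4 were higher and 1 lower. *AHP1*, a thioredoxin peroxidase, read 8.04, 6.81 and 7.92 in Δ*apn1*/p*MAG* and 6.77, 6.21 and 6.29 in wild type (1.16, standard error 0.30, adjusted p = 0.209 from limma). *GRE2*, a methylglyoxal reductase, read 5.22, 4.22 and 4.03 in Δ*apn1*/p*MAG* and 3.77, 2.12 and 2.25 in wild type (1.78, adjusted p = 0.184 from limma), with wild type replicate 1 the highest of its group. The difference was 0.36 in *GRE2* and 0.59 in *AHP1* within the arrays of low small RNA level, and 3.03 and 1.78 within those of high level. *TSA1* (0.64), the main peroxiredoxin, and *YPR1* (0.71), an aldo-keto reductase, were higher, and *GPX1* (−1.18), a glutathione peroxidase, lower. *TSA1* was lost without replicate 2 of wild type (0.47), *YPR1* without replicate 1 of Δ*apn1*/p*MAG* or replicates 2 or 3 of wild type (0.41 to 0.76) and *GPX1* without replicate 2 of Δ*apn1*/p*MAG* or replicates 2 or 3 of wild type (−1.23 to −0.58).

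Of 31 heat shock and chaperone genes 1 was higher, the small heat shock gene *HSP26*, at 6.74, 3.99 and 5.89 in Δ*apn1*/p*MAG* and 5.04, 1.63 and 1.20 in wild type. Wild type replicate 1 read above Δ*apn1*/p*MAG* replicate 2 (2.92, adjusted p = 0.549 from limma), the call was lost without replicate 3 of wild type (2.21), and the difference was −0.10 within the arrays of low and 5.32 within those of high small RNA level. The median of the list was 0.40, with 26 of 31 differences positive, and −0.40 and 0.90 within the low and high level. Taken array by array, it stood 0.43, −0.30 and 0.96 from the wild type mean on Δ*apn1*/p*MAG* replicates 1, 2 and 3, so the arrays did not share a direction. Against Δ*apn1* 9 of the 31 were higher and none lower, where 143 of 5656 genes were higher and 89 lower. Against WT/p*MAG* none was higher and 1 lower. No gene passed among 28 endoplasmic reticulum chaperones.

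In sugar metabolism *ALD6*, which oxidizes acetaldehyde to acetate, was higher at 5.92, 5.71 and 5.52 in Δ*apn1*/p*MAG* and 4.51, 4.23 and 3.96 in wild type (1.48, standard error 0.38, adjusted p = 0.209 from limma). It was the 1 higher gene among 38 of glycolysis, fermentation and gluconeogenesis, and 3 were lower. *FBP1*, the fructose bisphosphatase of gluconeogenesis, read 1.27, 1.67 and 1.39 in Δ*apn1*/p*MAG* and 2.13, 2.82 and 2.44 in wild type (−1.02, adjusted p = 0.383 from limma), and *ADH2*, which takes up ethanol, read 2.90, 3.87 and 3.66 in Δ*apn1*/p*MAG* and 3.96, 5.10 and 4.43 in wild type (−1.02, adjusted p = 0.442 from limma). All 3 passed with any array left out. Within the low and high level *FBP1* differed by −0.60 and −1.36 and *ADH2* by −0.20 and −1.86. A second, dim *ALD6* probe set differed by −0.071. The acetaldehyde dehydrogenase *ALD4* (−0.98) was lost without replicates 1 or 2 of Δ*apn1*/p*MAG* or replicate 1 of wild type (−0.98 to −0.66). Of 24 hexose transporters and sensors 3 were higher (*HXT3* 0.76, *HXT5* 0.67 and *MTH1* 0.60) and 2 lower (*HXT6* −0.61 and *HXT7* −0.60). *HXT3* was lost without replicate 1 of Δ*apn1*/p*MAG* or replicate 3 of wild type (0.33 to 0.65), *HXT5* without replicate 3 of Δ*apn1*/p*MAG* or replicate 3 of wild type (0.56 to 0.58) and *MTH1* without replicate 2 of Δ*apn1*/p*MAG* or replicate 2 of wild type (0.56 to 0.57). *HXT6* was lost without replicate 1 of Δ*apn1*/p*MAG* or replicates 2 or 3 of wild type (−0.57 to −0.51) and *HXT7* without replicates 1 or 2 of Δ*apn1*/p*MAG* or replicates 2 or 3 of wild type (−0.66 to −0.44). *HXT6* and *HXT7* are near-identical copies whose signals cannot be told apart. In glycerol metabolism 3 of 15 were higher with all arrays, *GPP1* (0.79) and *GPP2* (1.23), the glycerol phosphatases, and *YPR1*. All were highest on replicate 1, and without it none of the 3 passed (0.50, 0.56 and 0.48). *GPP1* was lost without replicates 1 or 3 of Δ*apn1*/p*MAG* or replicate 2 of wild type (0.50 to 0.80) and *GPP2* without replicate 1 of Δ*apn1*/p*MAG* or replicates 2 or 3 of wild type (0.56 to 1.05).

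Cytosolic ribosomal protein genes had no calls among 80. Of 122 ribosome biogenesis genes 2 were higher with all arrays and 11 without replicate 1, against 2.26% and 3.61% of all genes, with list medians of 0.18 and 0.35. *RRP40*, an exosome subunit, read 4.84, 4.38 and 4.57 in Δ*apn1*/p*MAG* and 3.12, 3.39 and 4.53 in wild type (0.91, adjusted p = 0.421 from limma), with 1 wild type array among the Δ*apn1*/p*MAG* values. *RLP7* (1.24), for the large ribosomal subunit, was lost without replicate 2 of Δ*apn1*/p*MAG* or replicate 1 of wild type (0.94 to 0.98). Array by array the median of the list stood −0.10, 0.62 and 0.084 from the wild type mean on Δ*apn1*/p*MAG* replicates 1, 2 and 3, so that the shift lay mainly in replicate 2. Of 39 proteasome genes 2 were higher, *RPN4* (0.89), the factor that induces proteasome genes, and *RPT4* (0.70), and both overlapped wild type. *RPN4* was lost without replicate 3 of Δ*apn1*/p*MAG* or replicate 3 of wild type (0.56 to 0.73) and *RPT4* without replicates 2 or 3 of Δ*apn1*/p*MAG* or replicates 2 or 3 of wild type (0.49 to 0.65). For the core subunit gene *PRE3* the brightest probe set did not pass (−0.41) and both dimmer ones were lower (−1.92 and −1.11). Both dimmer ones were lowest on Δ*apn1*/p*MAG* replicate 1 (0.86 and 0.98). Without it they stood at −1.31 and −0.74, the second no longer past the thresholds, and the brightest one passed (−0.61). The size thus depends on the probe set and on replicate 1.

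Some of the largest negative differences came from replicate 1 alone. The fatty acid synthase gene *FAS1* read 3.55, 7.77 and 7.40 in Δ*apn1*/p*MAG* and 7.95, 7.37 and 8.38 in wild type, so that replicates 2 and 3 lay within the wild type range and replicate 1 more than 3 units below it (−1.66, and −0.31 without replicate 1). *FAS2*, its partner, showed the same pattern at 4.42, 7.62 and 7.80 in Δ*apn1*/p*MAG* and 8.20, 7.55 and 8.34 in wild type (−1.42, and −0.32 without replicate 1). None of 7 further probe sets for each of both genes passed with all arrays, and without replicate 1 only 1 for *FAS1* did, as lower (−0.97). Over all omissions *FAS1* was lost without replicate 1 of Δ*apn1*/p*MAG* or replicates 1 or 3 of wild type (−1.64 to −0.31) and *FAS2* without replicate 1 of Δ*apn1*/p*MAG* or replicates 1 or 3 of wild type (−1.33 to −0.32). *FAS1* and *FAS2*, like *SUN4* and *YOR1* above, were read low on the array whose *ACT1* signal was low at the 5′ end, and the part of that in these differences was not tested.

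Outside the lists, or in lists with few calls, several genes stood clear of wild type on all 3 arrays. For all but *URA2* this was part of the rule that named them. *SGA1*, the glucoamylase of sporulation, read 3.81, 3.47 and 4.14 in Δ*apn1*/p*MAG* and 2.82, 3.03 and 2.94 in wild type (0.88, standard error 0.16, adjusted p = 0.0546 from limma), and its second probe set by 0.47, not past the thresholds. *ECM13*, of unknown function, read 3.54, 3.80 and 3.86 in Δ*apn1*/p*MAG* and 2.23, 1.34 and 1.22 in wild type (2.14, adjusted p = 0.087 from limma). *YPL088W*, a putative aryl alcohol dehydrogenase, read 4.83, 4.92 and 5.95 in Δ*apn1*/p*MAG* and 3.11, 3.63 and 3.92 in wild type (1.68, adjusted p = 0.087 from limma, and 2.33 and 1.06 within the low and high level). After the 7 probe sets under 0.05 these 3, with *YPS3*, had the smallest adjusted p. *LPX1*, a lipase of peroxisomes (1.33), and *URA2*, the first enzyme of pyrimidine synthesis (1.00), were also higher with any array left out. *HYP2*, the translation factor eIF5A, was among the brightest genes at 10.19, 10.16 and 10.02 in Δ*apn1*/p*MAG* and 9.54, 9.54 and 9.15 in wild type (0.71, adjusted p = 0.155 from limma), and was lost without replicate 3 of wild type (0.58). *COS12* (0.60), a subtelomeric gene, was lost without replicate 2 of Δ*apn1*/p*MAG* or replicate 1 of wild type (0.51 to 0.52).

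On the lower side *FMP46*, a mitochondrial protein with a redox fold, read 4.81, 3.77 and 4.32 in Δ*apn1*/p*MAG* and 5.84, 5.51 and 5.17 in wild type (−1.21, adjusted p = 0.158 from limma, and −1.79 and −0.53 within the low and high level). *TVP15*, of late Golgi vesicles, was even across arrays at 5.38, 5.36 and 5.34 in Δ*apn1*/p*MAG* and 6.67, 6.47 and 6.02 in wild type (−1.03, adjusted p = 0.185 from limma). *MBR1* (−0.98), tied to mitochondrial function, *CMC1* (−0.87), which serves cytochrome oxidase assembly, and *AIM7* (−0.97), which acts on actin branching, were lower by similar amounts. All 5 were named by a rule that asked for arrays below wild type throughout, so that trait is no finding. They passed with any of the 6 arrays left out.

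The comparisons of Δ*apn1*/p*MAG* with Δ*apn1* and with WT/p*MAG* give the same genes beside each change alone. They share the Δ*apn1*/p*MAG* arrays with the comparison against wild type, so the 3 sets of differences are not independent. Against Δ*apn1*, which by the labels differs from Δ*apn1*/p*MAG* in lacking p*MAG*, 7 probe sets (0.108%) had an adjusted p under 0.05, of which 3 lay higher (0.0461%) and 4 lower (0.0615%). An unadjusted p under 0.05 was reached by 537 (8.26%). The methods' thresholds were passed by 248 (3.81%), 149 higher (2.29%) and 99 lower (1.52%). Against WT/p*MAG*, which by the labels lacks the disruption, none had an adjusted p under 0.05 in limma, 408 (6.27%) had an unadjusted p under 0.05, and 198 (3.04%) passed the methods' thresholds, 143 higher (2.2%) and 55 lower (0.846%). Without Δ*apn1*/p*MAG* replicate 1 the count against Δ*apn1* was also 7, of which 4 were among the 7 with all arrays, and *PRY3*, *MMP1* and *AHP1* no longer passed (adjusted p = 0.11, 0.0773 and 0.11 from limma). An unadjusted p under 0.05 was then reached by 659 (10.1%) against Δ*apn1* and 626 (9.62%) against WT/p*MAG*, and the methods' thresholds were passed by 313 (4.81%) and 328 (5.04%). At an adjusted p under 0.05 in limma 1 (0.0154%) then stood against WT/p*MAG*, *BUB2*, with WT/p*MAG* at 2.90, 2.64 and 2.52 (1.20 with all arrays and 1.84 without replicate 1, adjusted p = 0.00703 from limma). *HUG1* read 1.53, 1.18 and 1.44 in Δ*apn1* and 6.31, 5.54 and 5.63 in WT/p*MAG*. The Δ*apn1*/p*MAG* arrays differed by 4.71 from the first (adjusted p = 0.0207 from limma) and by 0.27 with a standard error of 0.73 from the second (adjusted p = 0.962 from limma). *CHS1* read 1.25, 1.01 and 1.22 in Δ*apn1* and 1.58, 2.17 and 1.65 in WT/p*MAG*, with differences of 1.13 (adjusted p = 0.0207 from limma) and 0.49 (adjusted p = 0.751 from limma). Its WT/p*MAG* values lay between those of Δ*apn1*/p*MAG* and wild type apart from replicate 2.

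*FLO11* read 7.44, 7.86 and 7.18 in Δ*apn1* and 6.55, 6.63 and 6.33 in WT/p*MAG*, and Δ*apn1*/p*MAG* differed by −1.55 from Δ*apn1* (adjusted p = 0.0207 from limma) and by −0.56 from WT/p*MAG*. *PRY3* differed by −1.02 from Δ*apn1* (adjusted p = 0.0222 from limma) and by −0.43 from WT/p*MAG*, and *QDR2* by −1.02 (adjusted p = 0.0207 from limma) and −0.44. None of these 3 differences from WT/p*MAG* passed the adjusted threshold (adjusted p = 0.765 to 0.772 from limma). The other 2 probe sets past the adjusted threshold against Δ*apn1* were *MMP1* (−1.57, adjusted p = 0.0222 from limma), at 4.60, 4.60 and 4.21 in Δ*apn1* and 2.98, 3.28 and 2.50 in WT/p*MAG*, and *AHP1* (1.84, adjusted p = 0.0222 from limma), at 5.16, 5.86 and 6.23 in Δ*apn1* and 7.89, 7.69 and 7.76 in WT/p*MAG*. The differences between Δ*apn1*/p*MAG* and WT/p*MAG* were −0.025 with a standard error of 0.26 for *MMP1* and −0.19 with a standard error of 0.30 for *AHP1*. *HIS3* had another order, at 4.30, 4.87 and 5.35 in Δ*apn1* and 4.48, 4.76 and 4.39 in WT/p*MAG*, with differences of 0.54 (adjusted p = 0.661 from limma) and 0.84 (adjusted p = 0.751 from limma).

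Whether the effect of p*MAG* differs with the disruption was tested as an interaction, the difference between Δ*apn1*/p*MAG* and Δ*apn1* less that between WT/p*MAG* and wild type. No probe set had an adjusted p under 0.05 in limma, 208 (3.2%) had an unadjusted p under 0.05, and 119 (1.83%) passed the methods' thresholds. The 3.2% is below the share of 0.05 expected where no probe set differs. Without replicate 1 these numbers were 0, 269 (4.14%) and 162 (2.49%) in limma. For *HUG1* the interaction was 0.0097 with a standard error of 1.03 (adjusted p = 0.999 from limma), for *FLO11* −0.59 with a standard error of 0.34 (adjusted p = 0.998 from limma) and for *CHS1* 0.57 with a standard error of 0.23 (adjusted p = 0.998 from limma). Of the genes above, 10 passed the methods' thresholds against WT/p*MAG* with a difference of more than 1 unit. Higher in Δ*apn1*/p*MAG* were *APN1* (1.82), *ALD6* (1.53), *BUB2* (1.20), *GDH1* (1.18), *FUM1* (1.04), *HTB2* (1.02) and *HIS3* by its second probe set (1.04), and lower *TIP1* (−1.28), *SUN4* (−1.10) and *MAE1* (−1.08). None of them had an adjusted p under 0.05 in limma with all arrays. Without Δ*apn1*/p*MAG* replicate 1 *SUN4* (−0.27) and *FUM1* (0.96, unadjusted p = 0.0863 from limma) no longer passed, and *GDH1* was 0.72.

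**Figure D5:**
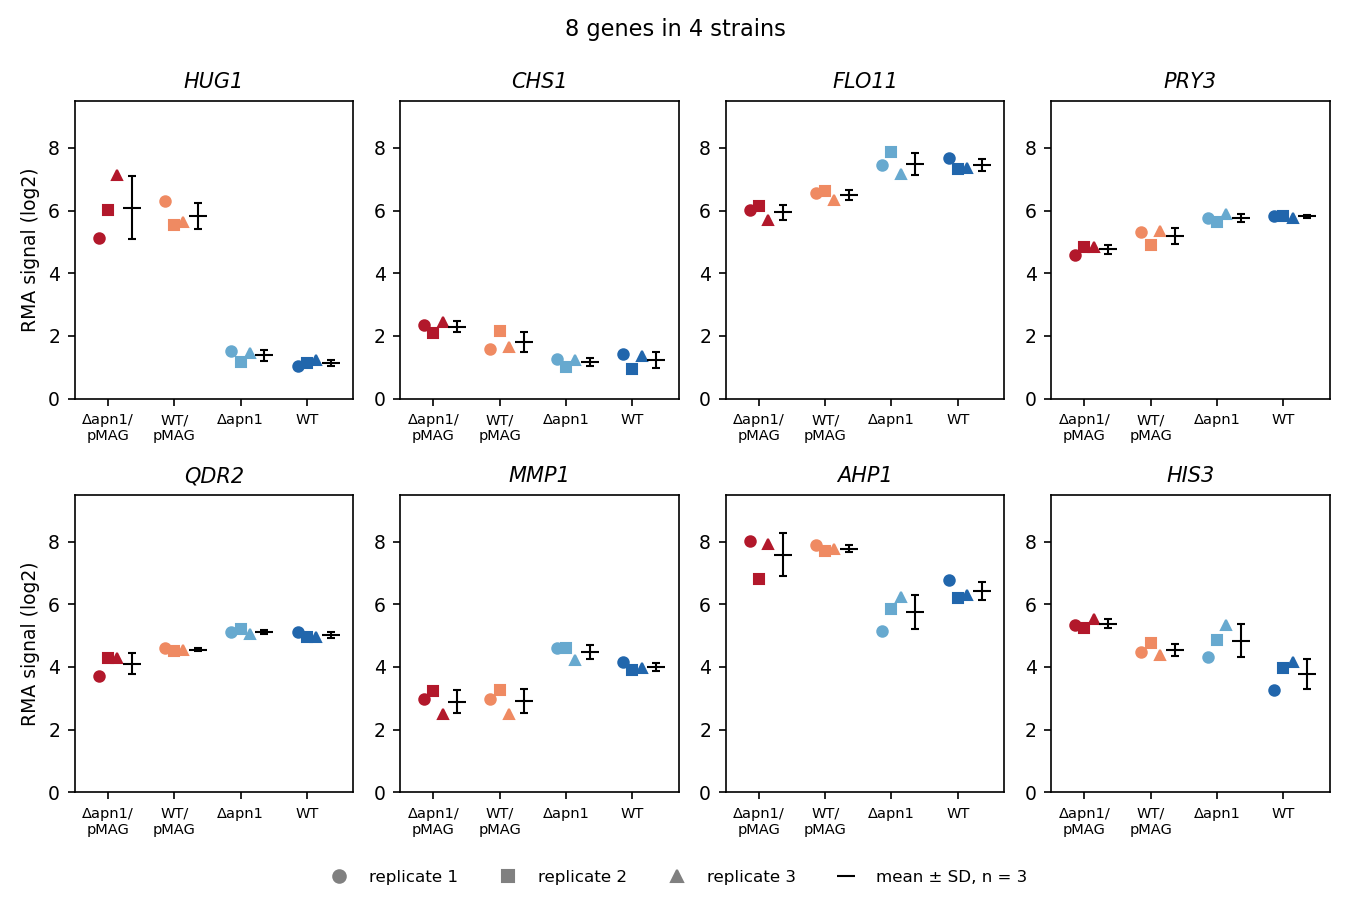
RMA signal (log2) of 8 genes on each array of Δ*apn1*/p*MAG*, WT/p*MAG*, Δ*apn1* and wild type, from left to right, with 1 symbol per replicate and the mean ± SD (n = 3) in black beside them. For *HUG1*, *AHP1* and *MMP1* the arrays of the 2 strains with p*MAG* overlap and lie apart from those of the 2 without it. For *AHP1* this is only narrowly so, with 6.81 on Δ*apn1*/p*MAG* replicate 2 and 6.77 on wild type replicate 1. *FLO11* and *PRY3* are lowest in Δ*apn1*/p*MAG* with WT/p*MAG* next, and the mean of *HIS3* is lowest in wild type.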

How the data were processed

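Labelled RNA from 3 biological replicate cultures per strain had been hybridised to Yeast Genome S98 arrays. The authors summarised the probe sets by RMA, and the deposited values lie on a log2 scale, as their range of 0.0711 to 13.02 shows. They were used as deposited. The genes come from the platform annotation, in which 6504 probe sets have 1 gene (5656 genes), 328 several and 2443 none. Another 60 are controls.

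limma 3.58.1 in R 4.3.3 (lmFit, eBayes, two-sided) was fitted to all 18 arrays with 1 mean per strain, leaving 12 residual degrees of freedom, and adjusted by Benjamini-Hochberg over the 6504 probe sets. The study's methods used p under 0.05 without adjustment and at least 1.5-fold (0.585 on the log2 scale). With 3 arrays per group the precision is limited, and p-values cover the spread between cultures of 1 strain. Gene lists counted each gene by its brightest probe set. The fit was tested on simulated data with independent noise of the same spread on every array. Those data held neither the small RNA levels nor the low 5′ signal of replicate 1, so the test does not cover them.

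Named genes were the markers, those past an adjusted p, the 15 highest and 15 lowest calls by p with separate ranges, up to 4 per list, and genes the study discusses. *RNR1*, *CTS1*, *SCW11*, *SUN4*, *TIR1*, *PRY2*, *DAN4*, *RLM1*, *SNQ2*, *YOR1*, *CIT1*, *MAE1*, *FIT2*, *FIT3*, *ENB1*, *FAS1*, *HXT7* and *GPH1* were added after their values were seen. The members and lists were chosen with earlier results of these data known. A planned promoter motif search was not run. Replicate numbers did not pair the arrays, and the alternatives were other normalizations, filters, fits and omissions of arrays. Leaving out Δ*apn1* or WT/p*MAG* arrays, or replicate 1 in the interaction, was chosen after seeing the data.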

Additional observations from a re-analysis of the deposited data

Results flagged for a closer look

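Among the probe sets that name several genes, which were left out of the comparison, 1 had an adjusted p under 0.05 in limma. It detects the Y′ helicase genes (*YRF1* family) that are repeated at chromosome ends, and was picked because its signal lay in data that the report did not use. It read 7.46, 6.72 and 7.36 in Δ*apn1*/p*MAG* and 6.22, 5.92 and 5.98 in wild type, with no overlap, a log2 difference of 1.14 and an adjusted p of 0.0269 from limma over all probe sets other than controls. Other probe sets of this family were higher too, with differences of 1.31 and 0.92 and no overlap (adjusted p = 0.0783 and 0.264 from limma). Of the 328 probe sets that name several genes 21 passed the methods' thresholds and 1 the adjusted one, and of the 2443 without a name 46 and 0. Of the 6504 with 1 gene 220 (3.38%) passed the methods' thresholds.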

How the results depend on the processing

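Over the 131 genes named or checked, each under all settings, 2024 of 2484 values kept their direction and side of the threshold, 391 kept only the direction and no longer passed, 22 passed newly and 47 changed sign. The cause of these changes was not tested. No detection call is given, and signals near the array medians limit the folds of *HUG1*, *CHS1* and *MAG1*. The count at an adjusted p under 0.05 (7) was 0 in a fit of the 6 arrays alone and in the methods' test without moderation (413 with an unadjusted p under 0.05 in the second), 3 with eBayes set to trend and robust, 4 with median centring, 47 with array weights, 0 and 138 within the arrays of low and high small RNA level, and between 0 and 9 with 1 array left out. The count at the methods' thresholds (220) was 378 and 706 within the low and high level, 442 with array weights and between 178 and 357 with 1 array left out. With the level as a block 50.3% of it was higher, against 60% in the report. List genes past the thresholds (99) were 254 within the high level and 160 with array weights, and between 86 and 136 with 1 array left out. Of the 214 measured genes that the naming rule gives, before those added later, 95 passed, and between 81 and 94 with 1 array left out.

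Of the same 214 genes, 76 passed against Δ*apn1*, 40 within the low level, and between 53 and 77 with 1 array left out. Against WT/p*MAG* 24 passed, 7 and 45 within the low and high level, and between 20 and 41 with 1 array left out (41 without WT/p*MAG* replicate 2).

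Same-numbered arrays did not deviate together (correlations of −0.205, −0.162 and −0.0799), so the numbers were not taken as pairs. With the replicate number as a block the adjusted count was 2, and 208 probe sets passed the methods' thresholds.

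Signs changed as follows, none of them past an adjusted p under 0.05. Within the arrays of high level the differences were 0.84 for *LEU2*, 0.25 for *GAL7*, 0.15 for *GAL10*, 0.060 for *NTG1*, 0.35 for *UNG1*, 0.048 for *COX5B*, 2.04 for *GPH1*, −0.21 for *FIT2*, −1.78 for *FIT3*, −1.84 for *ENB1*, −0.23 for *BUB2* and −0.14 for *BUR6*. Within those of low level they were 0.20 for *GAL1*, 0.041 for *GAL10*, 0.267 for *REV7*, 0.019 for *HTB1*, 0.37 for *HTB2*, −0.14 for *NTG2*, −0.033 for *APN2*, −0.14 for *REV1*, −0.26 for *REV3*, −0.10 for *HSP26*, −0.013 for *YPR1* and −0.39 for *GPP2*. With the level as a block they were 0.35 for *LEU2*, −0.025 for *REV1* and 0.047 for *REV7*, and with array weights 0.13 for *GAL1*. With 1 array left out in turn they ran from −0.60 to 0.32 for *LEU2*, from −0.19 to 0.22 for *GAL1*, from −1.19 to 0.067 for *GAL7*, from −0.88 to 0.064 for *GAL10*, from −0.037 to 0.52 for *NTG2*, from −0.28 to 0.16 for *UNG1*, from −0.076 to 0.12 for *APN2*, from −0.053 to 0.11 for *REV1*, from −0.081 to 0.28 for *REV3*, from −0.14 to 0.13 for *REV7*, from −0.28 to 0.12 for *HTB1*, from −0.33 to 0.15 for *HTB2* and from −0.025 to 1.87 for *ENB1*.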

Other observations

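Lists that the report leaves out had few calls. Of 37 genes for fatty acids and sphingolipids 3 were lower, *FAS1*, *FAS2* and *LAC1*, a ceramide synthase subunit, at 3.06, 3.47 and 2.82 in Δ*apn1*/p*MAG* and 4.26, 3.64 and 3.44 in wild type (−0.67, adjusted p = 0.605 from limma). *LAC1* was lost without replicate 3 of Δ*apn1*/p*MAG* or replicate 1 of wild type (−0.52 to −0.43). *CHO1*, the phosphatidylserine synthase, was the 1 lower gene of 32 for phospholipids (−0.62) and was lost without replicate 3 of Δ*apn1*/p*MAG* or replicate 2 of wild type (−0.53 to −0.36). No gene of 34 for sterols passed with all arrays, and 2 were higher and 2 lower without replicate 1. In purine synthesis and salvage 1 of 28 was lower, and in phosphate starvation 1 of 27. *SER2*, for the last step of serine synthesis, was higher (0.61) and was lost without replicate 2 of Δ*apn1*/p*MAG* or replicates 2 or 3 of wild type (0.42 to 0.59).

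In glycogen and trehalose metabolism 1 of 21 was higher, *SGA1*. The median of that list was −0.30, and *GPH1*, the glycogen phosphorylase, read 6.95, 3.12 and 0.65 in Δ*apn1*/p*MAG* and 7.54, 3.30 and 6.53 in wild type. Its arrays spread widely in both groups, and the difference of −2.22 did not pass with all arrays but did without replicate 1 (−3.91, adjusted p = 0.449 from limma).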
